A study of Mus musculus with 26 samples.

Results

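C-to-U editing was examined in the transcripts of 9 genes of endosomal sorting, Snx3, Snx4, Snx10, Snx12, Vps35, Rab21, Ap1s2, Arl8b and Stx7, by taking every entry with these symbols from 2 lists of edited sites in mouse macrophages. The bulk list held 9 sites in 8 of the genes, among 410 sites in 275 genes, and the single-cell list held 3 sites in 3 of the genes, among 171 sites in 89 genes. These were 11 distinct positions out of 526, since the Arl8b site stood in both lists, as did 55 of the 410 bulk sites (13.4%). The study compared macrophages grown from the bone marrow of C57BL/6J mice in 3 groups: 1 bulk library from Apobec1 -/- mice, which lack the deaminase APOBEC1, 1 bulk library from wild-type mice, and 24 libraries of single wild-type macrophages captured on a microfluidic chip, which per the study's text came from the same animal. All cells matured in 20 ng/mL M-CSF and were harvested on days 7 to 9 after isolation, without further stimulation. The Apobec1 -/- library entered the bulk list only as a filter, because sites with a C-to-T change in it had been removed, and no value of it is listed, so the loss of Apobec1 could not be checked here. With 1 bulk library per genotype the bulk rates have no replicates, and a rate is given with an exact Clopper-Pearson 95% interval on its reads, which covers counting error only. Per the study's text, the maturation of the cells was checked by flow cytometry, with homogeneous staining for the surface markers used. Here their identity could be checked only weakly, because the lists hold edited sites and no expression values. Of 9 macrophage markers, 4 (Itgam, Msr1, Cd36 and Cybb) carried a listed site, against 0 of 4 T cell, 0 of 3 B cell and 0 of 4 neutrophil markers. Of all 21924 protein-coding gene symbols of GENCODE vM21, 1.38% carried a listed site, so a count of 0 among so few markers says little.

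Endosomes receive cargo taken up at the cell surface and sort it either back to the plasma membrane or Golgi, or onward to lysosomes, a route that macrophages use heavily to degrade what they engulf. Sorting nexins bind phosphoinositides of the endosomal membrane through a PX domain, and with the retromer complex, whose core subunit is VPS35, they gather cargo into tubules for retrieval. Small GTPases of the Rab and Arl families and SNARE proteins then move and fuse the compartments. APOBEC1 deaminates C to U in messenger RNA, most often in AU-rich stretches of 3′ untranslated regions, and sequencing reads an edited C as T.

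All 11 sites lay in 3′ untranslated regions, and the sequence around 10 of them is shown because the base before the edited C was the same throughout. Each line gives 30 bases of the sense strand, which reads as the RNA does with T for U, 5′ to 3′, with the edited C in capitals. The bases are from the RefSeq sequence of GRCm38, which is the mm10 build that the positions refer to.
Arl8b: tgtgacaactctagaCctgcctgctttatc
Ap1s2: caaagtgagagttgaCtgagcaaagtggca
Snx4: tagaagcatactgtaCatggaacaaatcag
Snx3: tattctgtataaaaaCaaaatcaaatttat
Snx12: ttttttctaggcctaCtcccagttttctca
Snx10: tatatttggtcttaaCtggattttaaagag
Vps35: ttttgcatatttggaCtcagctatccatta
Rab21, downstream site: ttttatctgcttttaCaagcgcaaggtgca
Rab21, upstream site: ataacactgcagagaCcttaagtgctaaac
Stx7: tgctttttagttcaaCaactgttaggtttt
The windows of Arl8b (chr6:108822601-108822630), Ap1s2 (chrX:163933126-163933155), Snx4 (chr16:33298559-33298588), Snx3 (chr10:42535285-42535314), Snx10 (chr6:51589247-51589276) and Stx7 (chr10:24187935-24187964) are on the plus strand. Those of Snx12 (chrX:101213262-101213291), Vps35 (chr8:85260557-85260586, the single-cell site) and Rab21 (chr10:115290175-115290204 for the downstream site and chr10:115290611-115290640 for the upstream site) are on the minus strand. The strand that carried the C was the strand of the gene at 11 of 11 sites.

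An A preceded the edited C at 11 of 11 sites, against 357 of the 410 bulk sites (87.1%). The following base was less uniform: among the 9 bulk sites it was T at 4 and A at 3, and T followed at 46.3% and A at 42.0% of all 410. The letters TGAT are a core of the mooring sequence that guides APOBEC1 in the apolipoprotein B transcript. They were searched within 15 bases after the C on the sense strand. They were found at 0 of 11 sites, against 42 of the 410 bulk sites (10.2%). The A+T share of the 15 bases on each side had a median of 63.3% over the 9 bulk sites (56.7% to 90%), against 70% over all 410, and over 50 bases on each side the medians were 69% and 68%. Snx3 had the most A+T-rich window, and its C was soft-masked as repeat sequence in the reference, as were 45 of the 410 bulk sites. The study's methods removed sites in soft-masked simple or tandem repeats, and which kind of repeat holds the Snx3 site was not looked up. The predicted probability that the edited C was unpaired, folded in windows of 70 bases with pairs spanning at most 40, had a median of 0.743 over the 9 bulk sites, against 0.641 over all 410. It was lowest in Ap1s2, at 0.199, and highest in Snx4, at 0.940. The order of the medians turned when windows of 150 bases with spans of 100 were folded, at 0.367 over the 9 sites and 0.505 over the 410. Other Cs preceded by A were counted within 50 bases of each site, so that a C near several sites counts at each of them. Of 40 such counts around the 11 edited Cs, 0 were of a C in either list, against 108 of 1634 around the 410 bulk sites (6.61%). Neither is a share of distinct Cs.

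Within the transcripts, all 11 sites fell in the last exon, as did all 399 bulk sites that could be placed in a coding 3′ untranslated region of the GENCODE vM21 annotation. The Arl8b site at position 108822616 of chromosome 6 was 1064 bases after the stop codon of Arl8b-201 and the farthest from a stop codon among the 11, while the Snx4 site at position 33298574 of chromosome 16 was the nearest, at 96 bases. The sites of Stx7 (position 24187950 of chromosome 10), Snx10 (51589262 of chromosome 6) and Snx12 (101213276 of chromosome X) were 230, 300 and 486 bases after it. Rab21 held sites 147 and 583 bases after its stop codon, at positions 115290625 and 115290189 of chromosome 10, in an untranslated region of 3688 bases. Ap1s2 was edited at position 163933141 of chromosome X, 961 bases into a region of 1486. Snx3 and Vps35 differed from these in having short untranslated regions, of 612 and 738 bases, and sites toward the transcript end: 70 bases before it in Snx3 (position 42535300 of chromosome 10), and 559 bases after the stop codon in Vps35 (position 85260571 of chromosome 8, the single-cell site), at 75.7% of the region. The bulk sites in the 9 genes lay in the first 50% of the untranslated region at 6 of 9, against 169 of the 399 placed bulk sites (42.4%). In Rab21, Arl8b, Snx3, Snx10, Snx12 and Ap1s2 some annotated coding transcripts did not hold the site, which for Snx12 was in the 3′ untranslated region of 1 of 3.

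**Figure D1:**
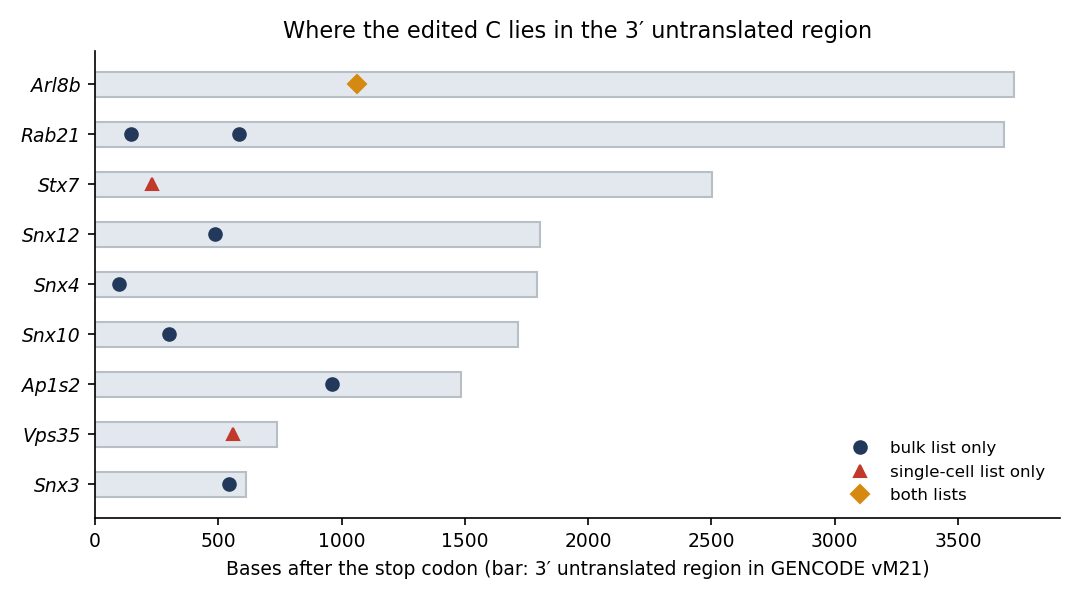
Position of 10 of the 11 edited Cs in the 3′ untranslated regions of the 9 genes, in bases after the stop codon (horizontal axis). Bars give the length of the annotated region, circles sites of the bulk list only, triangles sites of the single-cell list only and the diamond the Arl8b site of both lists; the Snx3 and Vps35 sites sit near the end of short regions.

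In the bulk wild-type library the 9 sites were edited at a median of 11.5% (mean 12.7% ± 5.36, SD over 9 sites, range 5.88% to 21.7%), against a median of 11.8% over all 410 sites. Both medians lie close to the detection limit of the list, which the study's methods put at a rate of roughly 10%, so lower rates are largely missing from both. Their depth was 17 to 57 reads with a median of 26, against a median of 30 over the list, and 41 of their 304 reads were edited (13.5%, interval 9.86% to 17.8%), against 2294 of 15078 (15.2%). Arl8b and Ap1s2 stood at the top, and without them the other 7 sites had 24 of 224 reads edited (10.7%). A rate above 20% was found at 2 of the 9 sites, Arl8b and Ap1s2, and at 41 of the 410 (10%).

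Arl8b, a small GTPase that links lysosomes to kinesin and carries them toward the cell periphery, had 5 edited of 23 reads, a rate of 21.7% (7.46% to 43.7%). This placed it 37th of 410 by rate and 266th by depth. Ap1s2, the sigma subunit of the clathrin adaptor AP-1 that shuttles cargo between the trans-Golgi and endosomes, had 12 edited of 57 reads, a rate of 21.1% (11.4% to 33.9%). Its rate was close to that of Arl8b but rested on more reads, and its difference from Arl8b had an interval of −16.5 to 22.6 percentage points around 0.686 (Arl8b minus Ap1s2, Newcombe's method).

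The 4 sorting nexins had 12 of 115 reads edited together (10.4%, 5.51% to 17.5%). Each had a lower rate than Arl8b and Ap1s2, but so did the bulk sites of Vps35 and Rab21, and Snx4 and Snx3 had higher rates than those. Snx4, which acts in recycling from endosomes and in autophagy, had 3 edited of 24 reads (12.5%, 2.66% to 32.4%). Snx3, which recruits retromer for the retrieval of Wntless and of the transferrin receptor, had 6 edited of 49 reads (12.2%, 4.63% to 24.8%). Snx12, a close relative of Snx3, had 2 edited of 25 reads (8%, 0.984% to 26.0%). Snx10, which is needed for the resorbing function of osteoclasts, cells of the macrophage lineage, had 1 edited of 17 reads (5.88%, 0.149% to 28.7%), the lowest rate and depth of the 9. The intervals of all 4 overlapped, so that their order was not resolved at this depth.

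Vps35 had 6 edited of 54 reads at its bulk site (11.1%, 4.19% to 22.6%). Rab21, a GTPase of early endosomes that traffics integrins, had 3 edited of 26 reads at the downstream site (11.5%, 2.45% to 30.2%) and 3 of 29 at the upstream site (10.3%, 2.19% to 27.4%). The Rab21 sites, 436 bases apart in the same untranslated region, had overlapping intervals. Stx7, a SNARE of late endosome and lysosome fusion, was not in the bulk list.

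**Figure D2:**
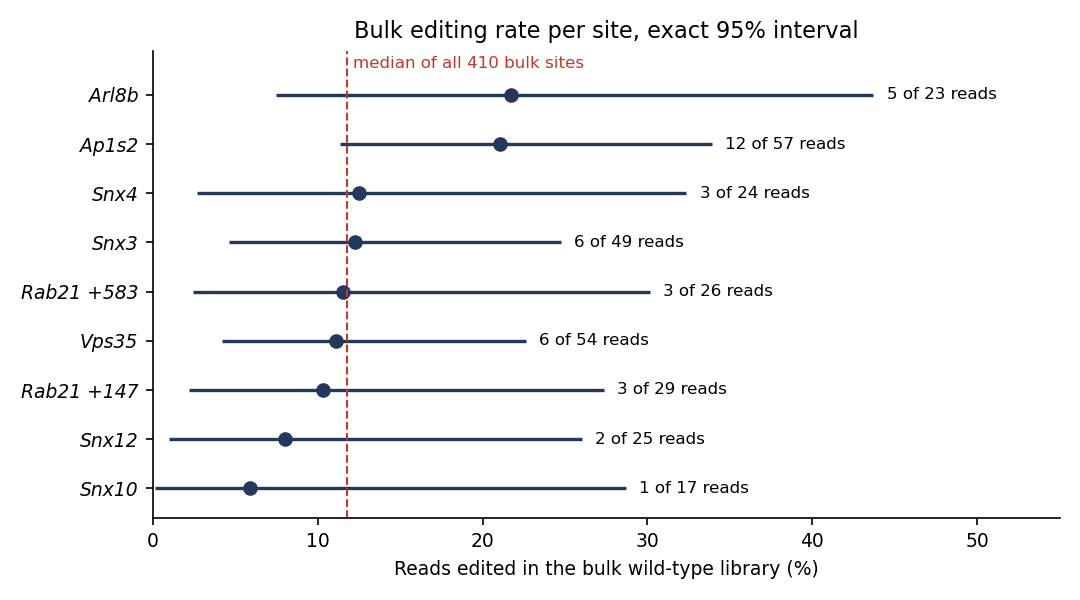
Percent of reads edited at the 9 bulk sites (horizontal axis) in the bulk wild-type library, ordered by rate, with exact 95% intervals on the reads and the edited and covering reads beside each. The Rab21 sites are named by their bases after the stop codon; the dashed line is the median of all 410 bulk sites, 11.8%, and lies within the interval of every one of the 9 sites.

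To find which sites differed beyond counting error, the edited and unedited reads of all 36 pairs of the 9 sites were compared by Fisher's exact test, two-sided, with Benjamini-Hochberg adjustment over the 36. No pair passed: 0 of 36 reached 0.05 before or after adjustment, by this test or by Barnard's exact test. The smallest unadjusted exact p was 0.201 by Fisher's test (adjusted p = 1), for Ap1s2 against Vps35, and 0.161 over the pairs by Barnard's. The difference between Ap1s2 and Vps35 was 9.94 percentage points with an interval of −4.07 to 23.5. The widest gap, Arl8b minus Snx10, was 15.9 points with an interval of −8.45 to 36.6. No neighbours in the order therefore differed beyond counting error, but the intervals also were wide, so the reads do not show that the rates were alike. These tests compare reads of 1 library, not conditions.

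The sites with fewest edited reads were set against the authors' detection limits. Fewer than 3 edited reads supported 2 of the 9 sites, Snx12 and Snx10, against 112 of the 410 (27.3%). The methods call for at least 2 edited reads, and Snx10, with 1, was among 7 of the 410 sites below that. Whether the listed depths and rates are of the reads judged at detection, or of reads left after a further filter, is not given in the sources used here, so these counts need not be those to which the limits were applied. They also call for an angle of at least 0.11 radians between the base counts of the genotypes, and, computed as if the knockout held only C, it was 0.0867 for Snx12 and 0.0624 for Snx10, under the limit at 2 of 9 sites against 28 of the 410 (6.83%). The other 7 sites were above both limits, and 0 of the 9 fell under the minimum vector length of 15.

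**Figure D3:**
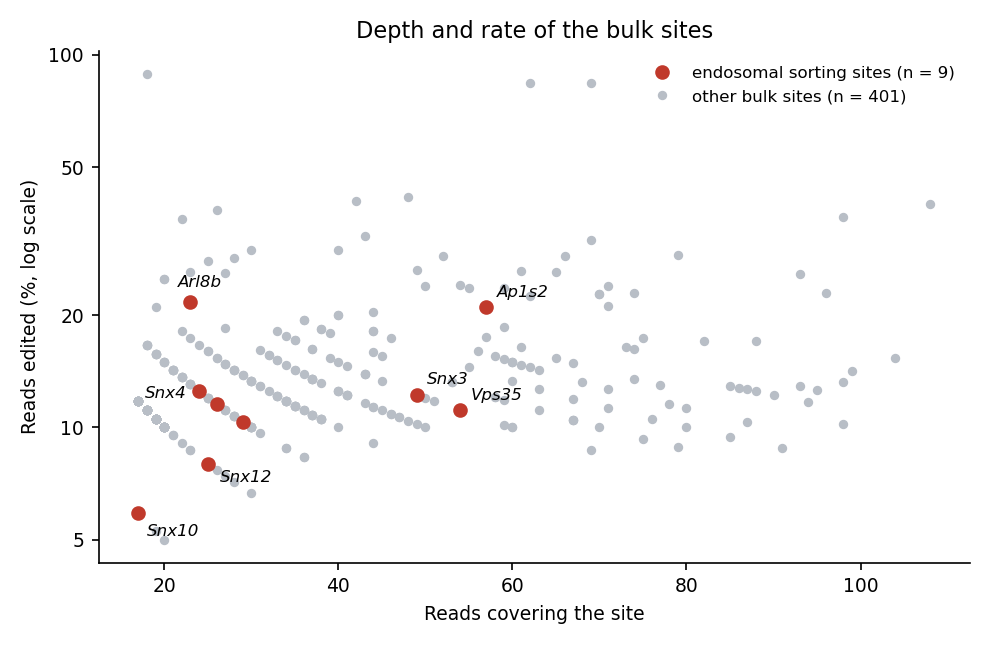
Reads covering each bulk site (horizontal axis) and percent of them edited (vertical axis, log scale), with the 9 endosomal sorting sites in red (the 2 red points without a name are Rab21) and the other 401 sites in grey. Snx10 and Snx12 sit at the lower edge of the list, and Ap1s2, Vps35 and Snx3 are the most deeply covered of the 9.

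In single cells, the question was whether the sites were edited evenly from cell to cell. The list gives a rate per cell without the number of reads behind it, so the depth of each value is unknown, no interval is given on a rate, and a rate of 0 need not mean that a transcript was free of editing. Cells are named here by their column in the list, which carries no cell names. At all 3 sites most covered cells had a rate of 0 and a few had high rates. The median over covered cells was 0 at each, as it was at 135 of the 171 listed sites (78.9%).

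Arl8b was covered in 21 of 24 cells and edited in 6 of them. The rates were 83.3% in cell 22, 57.1% in cell 14, 32.8% in cell 17, 25% in cell 24, 20.8% in cell 19 and 2.86% in cell 1, and 15 covered cells were at 0. The listed rates of the 6 edited cells thus ran from 2.86% to 83.3%, with 2 of the 6 above 50%. Whether the highest of them rest on few reads is not given. The mean over covered cells was 10.6% ± 22.4 (SD, n = 21 cells), the 41st highest mean and the 14th highest SD of 171, and without cell 22 the mean was 6.93%. This mean was 0.486 times the bulk rate of 21.7%, and over the 55 sites in both lists the ratio of mean over cells to bulk rate had a median of 0.583 (0.242 to 1.25). The measures are unlike: the mean weights each cell equally at unknown depth. The bulk rate pools the reads of another library, at sites that had to pass a detection limit. Its interval for Arl8b, 7.46% to 43.7%, holds 10.6%, so the data do not show that the cells were edited less.

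Stx7 was also covered in 21 cells and edited in 4, at 83.3% in cell 19, 44.4% in cell 16, 36.4% in cell 14 and 14.3% in cell 13, with 17 covered cells at 0. As at Arl8b, the highest rate was well above the next. Its mean over covered cells was 8.50% ± 21.1 (SD, n = 21 cells), and 4.75% with an SD of 12.7 points without cell 19. The SD was the 22nd highest of 171.

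Vps35 was covered in 23 cells and edited in 6, at 75% in cell 3, 38.9% in cell 8, 25% in cell 9, 20% in cell 14, 16.7% in cell 13 and 11.1% in cell 6, with 17 covered cells at 0. This position is not that of the bulk Vps35 site, and neither stands in the other list, so the rates belong to different Cs. The mean was 8.12% ± 17.9 (SD, n = 23 cells), and 5.08% with an SD of 10.6 points without cell 3.

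The share of covered cells with any edited read was 28.6% for Arl8b (exact interval 11.3% to 52.2%), 26.1% for Vps35 (10.2% to 48.4%) and 19.0% for Stx7 (5.45% to 41.9%), and these intervals cover the sampling of cells only. Sites had to be edited in at least 3 of 24 cells to be listed, and the intervals do not take this selection into account. Each of the 3 shares lay within the intervals of the others. A covered cell at 0 beside another above 50% was seen at 3 of the 3 sites and at 86 of all 171 (50.3%). Over all 171 sites the median mean was 7.22% and the median SD 14.4 points, with a median of 5 edited cells, and the SDs of these sites, with 4 to 6 edited cells, were above that median. Without its highest cell the SD was 12.7 points at Stx7 (cell 19), 10.6 at Vps35 (cell 3) and 15.3 at Arl8b (cell 22). The median of the list was not recomputed in that way, so these values cannot be set against it.

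**Figure D4:**
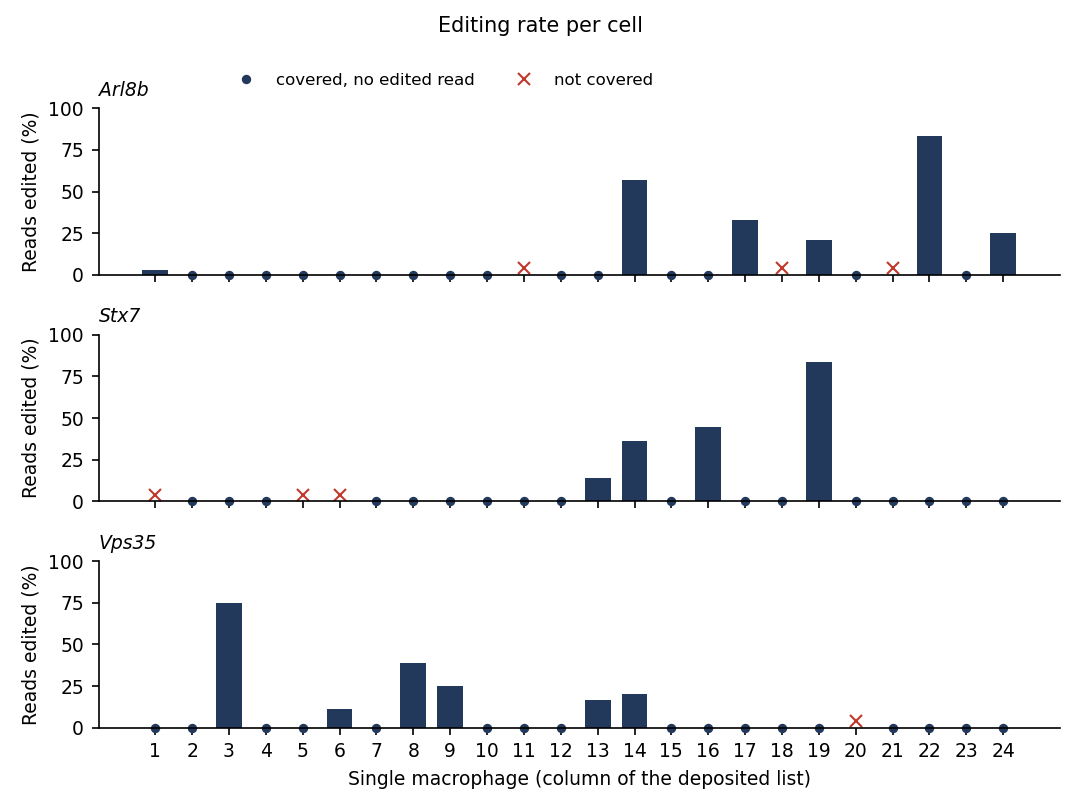
Percent of reads edited (vertical axis) at the Arl8b, Stx7 and Vps35 sites in each of the 24 single macrophages (horizontal axis, by column of the list). Bars are rates, dots on the axis covered cells with a rate of 0 and crosses cells without coverage; each site has 1 or 2 cells above 50% and 15 to 17 covered cells at 0.

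The cells edited at the 3 sites overlapped in part. Of the 24 cells, 12 were edited at none of them, 9 at 1, 2 at 2 and 1, cell 14, at all 3, and 17 cells were covered at all 3. Stx7 and Arl8b were edited together in 2 of the 18 cells covered at both, Stx7 and Vps35 in 2 of 20, and Arl8b and Vps35 in 1 of 20. Of the 4 cells edited at Stx7, 3 (cells 13, 14 and 19) were also edited at another of the 3 sites. Among the 6 cells edited at Arl8b these were cells 14 and 19, and among the 6 edited at Vps35 cells 13 and 14. Overlap at other pairs of listed sites was not computed, so nothing is read from these counts. As a measure of each cell, the share of its other covered sites that were edited ran between 20.7% and 52.5% over the 24 cells (median 36.5%). Cell 16, edited at Stx7, had the highest share and cell 22, with the highest Arl8b rate, the next, at 50%, while cell 24, also edited at Arl8b, had the lowest. Cell 19, with the highest Stx7 rate, was near the middle at 36.2%, and cell 3, with the highest Vps35 rate, was at 44.0%. The part of a cell's general editing in these rates was not tested.

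**Figure D5:**
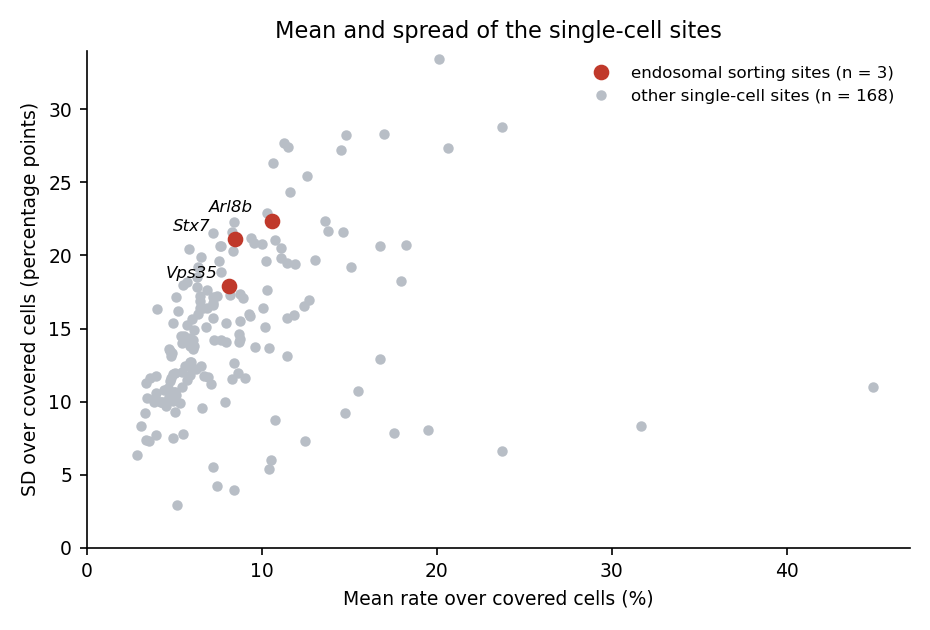
Mean rate over covered cells (horizontal axis, percent) and SD over covered cells (vertical axis, percentage points) for the 171 single-cell sites, with Arl8b, Stx7 and Vps35 in red and the other 168 sites in grey. The 3 sites have SDs of 17.9 to 22.4 points, above the list's median of 14.4. Without cell 19 and cell 3 those of Stx7 and Vps35 are 12.7 and 10.6, but the median keeps every cell and is no like reference for these.

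The other genes of the pathway were taken from 8 lists with 139 genes, of which 138 symbols were known to the annotation, and 12 of the 139 had a listed site, 10 of them in bulk and 4 in single cells. This was 8.63% of the lists, against 303 of the 21924 protein-coding gene symbols of GENCODE vM21 (1.38%), but 9 of the 12 are the genes chosen for having a listed site, and the 21924 include genes not expressed in macrophages, so nothing is read from the difference. Sorting nexins were represented by 4 of 30, all described above, the retromer, retriever and WASH complexes by Vps35 of 13, the endosomal Rab GTPases by Rab21 of 17 and the Arl8 and BORC genes by Arl8b of 11. Clathrin adaptors had 2 of 22, Ap1s2 and Gga2, and endosomal SNAREs 2 of 13, Stx7 and Snap23. The ESCRT machinery had 1 of 24, Chmp1b, and the HOPS and CORVET tethers, which act with STX7 in fusion, had 0 of 9. A gene without a listed site may be unedited, below the depth filters or not expressed, which the lists cannot tell apart. Snap23, a SNARE of secretory and phagosomal fusion, had 3 edited of 20 bulk reads (15%, 3.21% to 37.9%). Chmp1b, an ESCRT-III subunit, had 3 edited of 30 reads (10%, 2.11% to 26.5%) and 3 of 26 (11.5%, 2.45% to 30.2%) at its 2 sites. Gga2, an adaptor for the mannose 6-phosphate receptors, stood in the single-cell list only, covered in 10 cells and edited in 4, with a mean of 13.8% ± 21.7 (SD, n = 10 cells) and a highest rate of 50%. Its mean was above those of Arl8b, Stx7 and Vps35, but over fewer cells, and the bulk rates of Snap23 and Chmp1b lay between those of Snx12 and Ap1s2.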

How the data were processed

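Per the submitters' processing notes and the study's methods, the authors used Trim Galore 0.2.5 for trimming, TopHat2 and Bowtie for unique alignment to mm10, and Picard to discard duplicates. Their bulk list holds C-to-T changes absent from the knockout library, with thresholds of 2 edited reads, a vector length of 15 and an angle of 0.11 radians, filtered on known variants, splice junctions and repeats. Its deposited values are counts of covering reads and the fraction edited. For single cells the deposited value is a fraction in each cell, with no counts, for sites edited in at least 3 of 24 cells; further filters: not given in the sources used here. The columns carry no cell names and were not matched to samples.

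Depth times rate gave edited reads, whole within 0.001 at 410 of 410 sites. Rates carry exact 95% intervals, and sites were compared by Fisher's exact test. Simulated reads used to try that test had either equal rates or a single site far above the others. Its power at gaps of the size seen here was not tested. Positions were placed on GRCm38 with RefSeq sequence and GENCODE vM21. Python 3.11.15, NumPy 2.4.6, SciPy 1.17.1, pandas 2.3.3, pysam 0.24.0, ViennaRNA 2.7.2 and matplotlib 3.10.9 were used. The genes and lists were chosen with earlier results of these data known. Named are the 9 genes and each gene of the 8 pathway lists with a listed site. The sequence and position of the bulk Vps35 site are not reported here. Symbols changed into dates by a spreadsheet include none of the 9. Alternatives varied the interval, the exact test, minimum depth and edited reads, uncovered cells, the folding window and the flank, and left out each cell.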

Additional observations from a re-analysis of the deposited data

How the results depend on the processing

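Of 36 alternatives over 22 results, 33 left the value within the spread of its main value and 3 moved it. Leaving out 1 covered cell in turn gave SDs of 12.7 to 21.6 points for Stx7, 15.3 to 22.9 for Arl8b and 10.6 to 18.3 for Vps35, and means of 4.75% to 8.92%, 6.93% to 11.1% and 5.08% to 8.48% for the same genes. The low SDs of Stx7 and Vps35 came without cell 19 and cell 3, the highest rate at each. The median unpaired probability of the 9 bulk sites was 0.367 in place of 0.743 with folding windows of 150 bases and spans of 100, and the cause was not tested. The median bulk rate was 12.2% at sites with at least 3 edited reads and 11.3% at those with at least 25 reads, and 0 of 15 pairs of these deeper sites differed by Fisher's exact test, before or after adjustment. With uncovered cells at 0 the means were 7.43% for Stx7, 9.25% for Arl8b and 7.78% for Vps35. Wilson intervals moved an upper bound by at most 1.80 points. Depths of 17 to 57 reads limit what the bulk rates can separate, and single-cell rates have no stated depth. With 1 library per genotype and cells from 1 animal, no value carries variation between animals.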
